A study of Sus scrofa with 36 samples.

Results

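The insulin-like growth factor (IGF) axis was described in the adrenal gland of the pig through 10 genes, the ligands IGF1 and IGF2, the receptors IGF1R and IGF2R, and the binding proteins IGFBP1 to IGFBP6. They were chosen by name (the gene name in the scanner files, or a RefSeq transcript of the gene) from the 10055 genes that could be named in the deposited table of log2 values. The array held 41 probes of these genes among its 60305, and the table held 38 of them among 45348. The 3 probes outside the table were IGF1 probe 5 and IGFBP1 probe 3, well above background on 0 arrays, and IGFBP4 probe 3, well above background on 5 arrays. Probes are numbered here within each gene from the brightest down, and all values are log2 normalized intensities. Levels of different probes are not set against each other, because each probe binds its target with its own strength.

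Adrenal RNA of 36 castrated male pigs was labelled with Cy3, and each pig had its own Agilent array. There were 6 groups of 6 pigs. The groups were Creole, Large White and their cross (Large White × Creole), each in thermoneutral (TN) and heat stress (HS) conditions. TN pigs were kept at 24 °C and slaughtered before the temperature rose. HS pigs stayed at 32 °C for 4 to 5 days by the study's methods, while the labels give 30 °C. All pigs had entered the climatic room at 11 weeks of age, and their age at slaughter is not stated as such. HS pigs were slaughtered after TN pigs and so were older, and temperature, age and day of slaughter cannot be told apart. By the study's methods the 12 pigs of each breed came from 3 litters of 4 littermates, which the labels do not tie to the arrays. Each breed was also housed in 4 pens of 3 pigs, each pen within a temperature group, and the labels do not give the pens. The tests below treat the pigs as independent, so the SEs and p-values between breeds and between temperatures may be too small. Breed cannot be told apart from these few litters.

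The arrays lay on 5 slides, with as many TN as HS arrays on each, and had between 42436 and 48060 probes well above background. Of the markers of the labelled tissue, STAR, which moves cholesterol into the mitochondria of the adrenal cortex, had a mean of 17.72, and CHGA, a granule protein of the medulla, had a mean of 18.70. The levels of these probes alone do not settle the tissue. In a piece of whole gland, fewer cells of a type and less RNA per cell cannot be told apart.

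IGF1 and IGF2 are small secreted hormones that resemble insulin and drive growth and survival through the tyrosine kinase IGF1R. IGF2R carries no kinase and takes IGF2 to lysosomes, while the IGFBPs hold both ligands in blood and tissue, prolong their life and keep them from the receptor, IGFBP6 with a preference for IGF2. IGF2 is an imprinted gene that is abundant in the fetal adrenal cortex, and the adrenal gland expresses the axis after birth as well.

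Several probes repeat each other, so a count of probes is not a count of independent measurements. The sequences of IGF2 probes 4, 6 and 7 are shown for that reason. These and IGF2 probe 8, which shared no run of at least 15 bases with another IGF2 probe, each passed the FDR for the breed difference described further on. IGF2 probes 4 and 5 carried the same 60 bases, shown once. IGF2 probes 6 and 7 shared 38 bases, given in capitals. IGF1R probe 2 is shown because it passed the FDR where the brightest probe of its gene did not. Sequences of the other probes are not shown.
IGF2 probe 4: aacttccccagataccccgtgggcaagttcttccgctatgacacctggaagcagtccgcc
IGF2 probe 6: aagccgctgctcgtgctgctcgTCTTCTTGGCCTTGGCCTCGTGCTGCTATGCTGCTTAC
IGF2 probe 7: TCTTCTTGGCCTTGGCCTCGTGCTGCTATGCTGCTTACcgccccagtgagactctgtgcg
IGF2 probe 8: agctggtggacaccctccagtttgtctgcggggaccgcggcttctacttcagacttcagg
IGF1R probe 2: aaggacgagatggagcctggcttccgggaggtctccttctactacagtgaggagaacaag

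These were read from the scanner files, 5′ to 3′. The 3 IGFBP3 probes also overlapped, 2 of them with the same 60 bases, and IGFBP2 probes 1 to 3 shared runs of 51 to 54 bases. IGF1 probes 2 and 3 had 58 bases in common, IGF2R probes 4 and 5 had 28, and IGFBP6 probes 1 and 2 had 28.

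IGF2 was higher in Large White than in Creole pigs, by 0.72 ± 0.17 (SE) on the log2 scale or 1.65-fold for its brightest probe, and over both temperatures its mean in the cross lay between those of the parental breeds, while among HS pigs the cross mean was below both. IGFBP6 was higher in Large White pigs as well, by 0.50 ± 0.12 or 1.42-fold. Neither gene, nor any other member, passed the FDR for HS minus TN. Of the 38 member probes, 11 passed an FDR of 0.05 in limma for Large White minus Creole, 10 of them higher in Large White pigs, against 11.5% of all probes tested. They belonged to 3 genes, with 8 of the 9 IGF2 probes, 2 of the 4 IGFBP6 probes and 1 of the 3 IGF1R probes. The count of 11 fell to 2 without the arrays of slide 2 and to 6 without those of slide 3. The median difference over the 38 probes was 0.07, against -0.000373 over all probes, with 26 above 0 and 12 below. Of all probes, 49.9% were above 0. The 26 include the 9 IGF2 and 4 IGFBP6 probes, which are not independent within each gene.

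IGF2, brightest probe A_72_P376458, ranged from 12.73 to 14.04 among the Creole TN pigs, with a median of 13.23, and from 13.13 to 14.43 among the Creole HS pigs, with a median of 13.54. In the cross it ranged from 13.41 to 14.73 in TN (median 13.66) and from 13.15 to 14.16 in HS (median 13.43). In Large White pigs it ranged from 13.74 to 14.48 in TN (median 14.26) and from 13.88 to 14.57 in HS (median 14.30). Every Large White pig of a temperature group stood above the Creole median of that group, and the groups overlapped. Among TN pigs, 34 of the 36 pairings of a Large White with a Creole pig had the Large White pig higher, and among HS pigs 31 of 36. The group means were 13.30 ± 0.43 (SD, n = 6) in Creole TN, 13.68 ± 0.46 in Creole HS, 13.90 ± 0.53 in cross TN, 13.57 ± 0.41 in cross HS, 14.16 ± 0.29 in Large White TN and 14.27 ± 0.26 in Large White HS. In descending order these ran Large White HS, Large White TN, cross TN, Creole HS, cross HS and Creole TN, and every step between neighbours was smaller than the larger of their SDs.

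**Figure D1:**
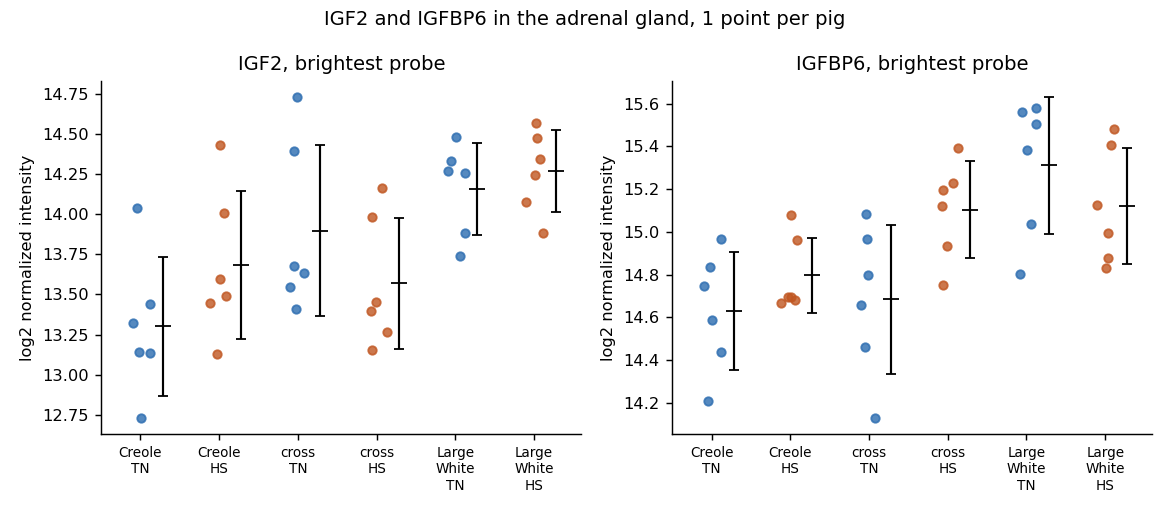
Log2 normalized intensity of the brightest IGF2 probe (left) and the brightest IGFBP6 probe (right) in the 6 groups, TN in blue and HS in orange, 1 point per pig, with the mean and SD of 6 pigs as black bars. The Large White pigs lie between 13.74 and 14.57 for IGF2 and between 14.80 and 15.58 for IGFBP6, and the breeds overlap.

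The difference in IGF2 between Large White and Creole pigs had an adjusted p of 0.00334 in limma for the brightest probe. Probes 2 to 8 gave differences between 0.41 and 0.67, with adjusted p between 0.00234 and 0.0252 in limma. IGF2 probe 9, well above background on 31 of the 36 arrays, gave 0.16 with an adjusted p of 0.235 in limma. The 9 probes moved together from pig to pig, with a median Pearson r of 0.94 over their 36 pairs (lowest 0.67) after each value was centred on its group mean, a description over 36 arrays. Within the 5 slides the difference of the brightest probe was above 0 on each, from 0.02 to 1.36, with between 1 and 3 pigs of a breed per slide. On slide 1, at 0.51, 2 Large White TN pigs stood against 1 Creole HS pig, so breed and temperature cannot be told apart there. Without the arrays of slide 2 it was 0.53 with an adjusted p of 0.0719 in limma, and without those of slide 3 it was 0.68 with an adjusted p of 0.0606, so that the call did not hold in these reduced sets. No other IGF2 probe passed without slide 2 either, and only probe 3 passed without slide 3. For the brightest probe, leaving out slide 1, 4 or 5 kept the call. Leaving out any 1 pig gave 0.65 to 0.80, with adjusted p up to 0.00759 in limma.

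By temperature, IGF2 was higher in Large White than in Creole pigs by 0.86 ± 0.23 (SE) among TN pigs (adjusted p 0.0252, limma) and by 0.58 ± 0.23 among HS pigs (adjusted p 0.172, limma). In TN pigs 11 member probes passed the FDR for this contrast, IGF2 probes 1 to 8 and IGFBP6 probes 1 to 3, against 3.55% of all probes. In HS pigs 0 member probes passed, against 2.86% of all probes, and 8 of 38 had an unadjusted p under 0.05, against 16.1% of all probes. The contrast was not shown to differ between temperatures, as limma's interaction F test gave an adjusted p of 0.982 for the brightest IGF2 probe. That test called 0 probes on the whole array, 0% of those tested, and 4 member probes had an unadjusted p under 0.05, against 4.22% of all probes.

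IGF1 did not differ by breed beyond the spread. Its brightest probe, O14150, ranged from 9.30 to 10.13 in Creole pigs (median 9.70), from 9.30 to 9.97 in the cross (median 9.65) and from 9.25 to 10.06 in Large White pigs (median 9.82). The 3 ranges covered nearly the same values. Large White minus Creole was 0.05 ± 0.11 (SE) for this probe and between 0.05 and 0.09 for the other 3, with adjusted p of at least 0.445 in limma. The brightest probe followed the others only in part, with r from 0.24 to 0.52 over 36 arrays, and shared a run of at least 15 bases with 4 probes of other or no name on the array. IGF1 probe 4 was well above background on 24 arrays.

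Among the receptors, IGF1R gave different answers by probe. Its brightest probe, O13126, ranged from 10.65 to 11.23 in Creole pigs (median 11.01) and from 10.67 to 11.47 in Large White pigs (median 10.97), with a difference of -0.03 ± 0.07 (SE). IGF1R probe 2, A_72_P440946, fell by 0.27 ± 0.07 from Creole to Large White pigs, with an adjusted p of 0.00874 in limma. IGF1R probe 3 gave -0.09 ± 0.06 with an adjusted p of 0.392 in limma. The 3 probes correlated with r from 0.42 to 0.60 over 36 arrays after centring. Without the arrays of slide 2, probe 2 gave -0.22 and an adjusted p of 0.0757 in limma. No change of the gene as a whole is stated from 1 probe of 3.

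IGF2R, which clears IGF2, had its brightest probe, O10348, between 13.06 and 13.77 in Creole pigs (median 13.32), between 13.12 and 13.55 in the cross (median 13.44) and between 13.28 and 13.68 in Large White pigs (median 13.44). The Large White and cross ranges lay within that of the Creole pigs. Large White minus Creole was 0.10 ± 0.06 (SE) for this probe and from -0.02 to 0.18 for the other 4, and the lowest adjusted p of the 5 was 0.118 in limma. A probe named M6P/IGF2R in the files has the 60 bases of O10348 and was not counted as a member.

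Of the binding proteins, IGFBP6 was the one with calls. Its brightest probe, A_72_P088481, ranged from 14.21 to 14.97 in Creole TN pigs (median 14.67) and from 14.67 to 15.08 in Creole HS pigs (median 14.69). In the cross it ranged from 14.13 to 15.09 in TN (median 14.73) and from 14.75 to 15.39 in HS (median 15.16). In Large White pigs it ranged from 14.80 to 15.58 in TN (median 15.44) and from 14.83 to 15.48 in HS (median 15.06). In TN, 5 of the 6 Large White pigs stood above the highest Creole pig, and in HS 3 of 6 did. The group means ran from 15.31 ± 0.32 (SD, n = 6) in Large White TN through Large White HS, cross HS, Creole HS and cross TN to 14.63 ± 0.28 in Creole TN. The step from cross HS, 15.10 ± 0.23, to Creole HS, 14.80 ± 0.18, was larger than either SD, and the other steps were within the spread.

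For Large White minus Creole, IGFBP6 probes 1 and 2 gave 0.50 and 0.49, with adjusted p of 0.00384 and 0.0027 in limma. IGFBP6 probe 3 gave 0.31 ± 0.12 (SE, adjusted p 0.087, limma) and probe 4 gave 0.22 ± 0.11 (adjusted p 0.2, limma). With the slide as a fixed or random block, probe 3 passed the FDR and probe 4 did not. The 4 probes moved together from pig to pig, with r from 0.80 to 0.97 over 36 arrays after centring. The difference of the brightest probe was above 0 on each of the 5 slides, from 0.30 to 0.79, and its call held with any 1 slide or any 1 pig left out. Slide 1, at 0.31, again set 2 Large White TN pigs against 1 Creole HS pig. Among TN pigs the difference was 0.68 ± 0.15 (adjusted p 0.00888, limma) and among HS pigs 0.32 ± 0.15 (adjusted p 0.293, limma), with an interaction adjusted p of 0.982.

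IGFBP3, the main carrier of the ligands in blood, had lower values in Large White pigs but did not pass the FDR. Its brightest probe, O12810, ranged from 10.06 to 11.19 in Creole pigs (median 10.48), from 9.58 to 10.99 in the cross (median 10.31) and from 9.55 to 10.55 in Large White pigs (median 10.24). The breeds overlapped over most of their ranges. Large White minus Creole was -0.33 ± 0.14 (SE), -0.38 ± 0.14 and -0.33 ± 0.14 for probes 1 to 3, and the lowest adjusted p was 0.0636 in limma. With the slide as a fixed or a random block, probe 2 passed the FDR, while probe 3, with the same 60 bases, and probe 1 did not.

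IGFBP2, which is expressed widely and binds IGF2 well, had its brightest probe, A_72_P634395, between 10.65 and 11.73 in Creole pigs (mean 11.07 ± 0.31, SD, n = 12), between 10.30 and 11.20 in the cross (mean 10.82 ± 0.29) and between 10.27 and 11.43 in Large White pigs (mean 10.87 ± 0.33). The 3 breeds overlapped. Its 4 probes gave Large White minus Creole between -0.20 and -0.08 with adjusted p of at least 0.323 in limma.

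IGFBP4, an inhibitor of IGF action in tissue, and IGFBP5, which binds to extracellular matrix, had like means in the 3 breeds. The brightest IGFBP4 probe had breed means of 13.05 ± 0.11 (SD, n = 12) in Creole, 13.07 ± 0.20 in cross and 13.08 ± 0.22 in Large White pigs. The brightest IGFBP5 probe had means of 13.29 ± 0.18, 13.27 ± 0.23 and 13.28 ± 0.36. Differences of the 4 probes of both genes between Large White and Creole pigs lay between -0.00241 and 0.09, smaller than the spread between pigs, with adjusted p of at least 0.69 in limma.

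IGFBP1, a protein of the liver that insulin lowers, was read by 2 probes that did not move together (r = -0.36 over 36 arrays after centring). The brighter one, A_72_P115916, had breed means of 11.32 ± 0.23 (SD, n = 12) in Creole, 11.35 ± 0.16 in cross and 11.40 ± 0.35 in Large White pigs. Large White minus Creole was 0.08 ± 0.10 (SE) for it and 0.04 ± 0.07 for the other, with adjusted p of at least 0.689 in limma. The strand and place of the dimmer probe, O9107, could not be checked against a transcript here, so its values may not be those of the IGFBP1 transcript.

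**Figure D2:**
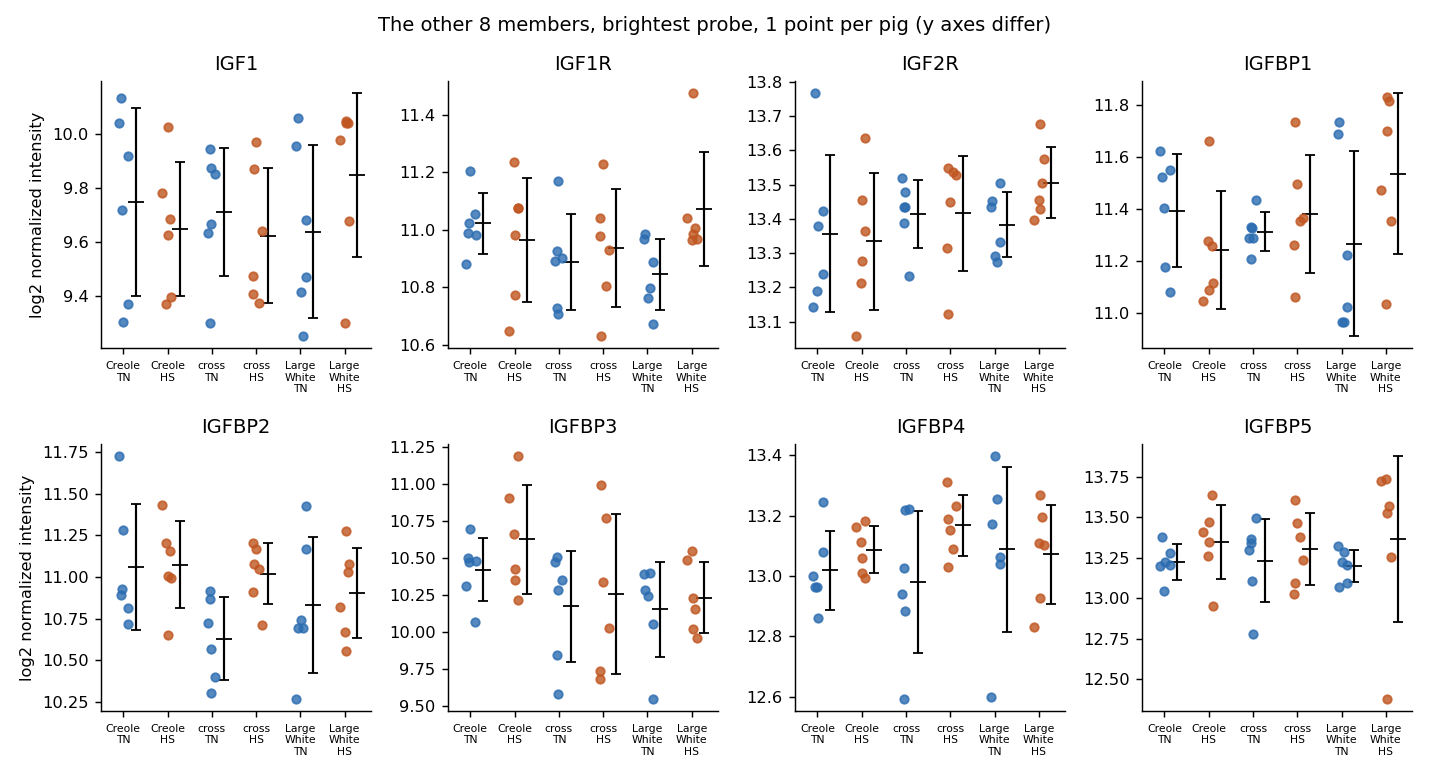
Log2 normalized intensity of the brightest probe of the other 8 members in the 6 groups, TN in blue and HS in orange, 1 point per pig, with the mean and SD of 6 pigs as black bars and a separate y axis for each gene. The groups overlap in each panel, and 1 Large White HS pig is the highest for IGF1R (11.47) and the lowest for IGFBP5 (12.38).

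Across the 3 breeds, limma's breed F test called 10 member probes against 10.6% of all probes: IGF2 probes 1 to 5, 7 and 8, IGFBP6 probes 1 and 2, and IGF1R probe 2. The cross did not pass the FDR against either parental breed for any member probe. Cross minus Creole called 0 member probes against 3.99% of all probes, with 4 at an unadjusted p under 0.05 (17.9% of all probes), and gave 0.24 ± 0.17 (SE) for IGF2 and 0.18 ± 0.12 for IGFBP6. Large White minus cross called 0 against 1.42%, with 12 at an unadjusted p under 0.05 (13.1% of all probes), and gave 0.48 ± 0.17 for IGF2 and 0.32 ± 0.12 for IGFBP6. The cross was then set against the mean of its parental breeds. No member probe passed, against 0.415% of all probes, and 0 had an unadjusted p under 0.05, against 11.2% of all probes. IGF2 differed from that mean by -0.12 ± 0.14 and IGFBP6 by -0.07 ± 0.10.

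The response to heat was the study's own question. For HS minus TN over the 3 breeds, 0 of the 38 member probes passed the FDR, against 0.911% of all probes, and 0 had an unadjusted p under 0.05, against 13.5% of all probes. The lowest adjusted p was 0.422 in limma, for IGF1 probe 4. For the ligands, the brightest probes gave 0.01 ± 0.09 (SE) for IGF1 and 0.05 ± 0.14 for IGF2. For the receptors, IGF1R gave 0.07 ± 0.06 and IGF2R 0.03 ± 0.05. The binding proteins gave 0.06 ± 0.08 for IGFBP1, 0.16 ± 0.10 for IGFBP2, 0.12 ± 0.11 for IGFBP3, 0.08 ± 0.06 for IGFBP4, 0.12 ± 0.09 for IGFBP5 and 0.13 ± 0.10 for IGFBP6. Differences of the 38 probes ran from -0.06 to 0.18, with a median of 0.05 against -5.02e-06 over all probes, and 32 of 38 were above 0, against 49.998% of all probes.

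**Figure D3:**
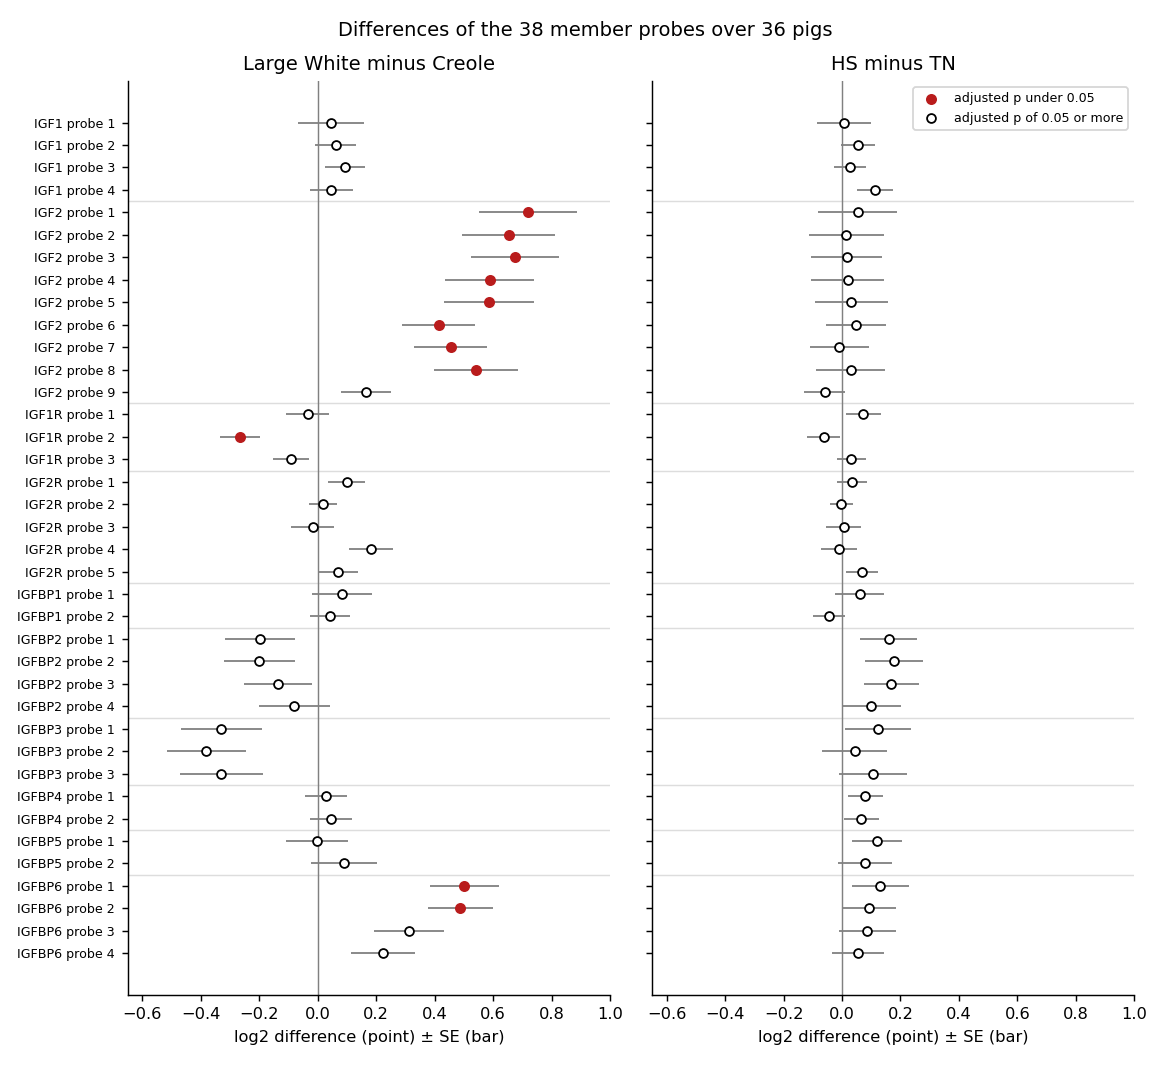
Log2 difference (point) and its SE (bar) for each of the 38 member probes over 36 pigs, Large White minus Creole on the left and HS minus TN on the right, red where limma's adjusted p was under 0.05. On the left IGF2 reaches 0.72 and IGFBP6 0.50, and on the right the values run from -0.06 to 0.18 with no red point.

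Within the breeds, with 6 TN and 6 HS pigs each, 0 member probes passed the FDR for HS minus TN. Of all probes, 0% passed in Creole pigs, 0% in the cross and 0.011% in Large White pigs. At an unadjusted p under 0.05 there were 1, 8 and 1 member probes in Creole, cross and Large White pigs, against 4.79%, 12.3% and 6.29% of all probes. The brightest IGF2 probe gave 0.38 ± 0.23 (SE) in Creole pigs, -0.33 ± 0.23 in the cross and 0.11 ± 0.23 in Large White pigs. For IGFBP6 the values were 0.17 ± 0.15, 0.42 ± 0.15 and -0.19 ± 0.15, and for IGFBP2 they were 0.01 ± 0.17, 0.39 ± 0.17 and 0.07 ± 0.17. In the cross, the adjusted p was 0.247 for IGFBP6 and 0.332 for IGFBP2 in limma. The interaction did not pass for any of them.

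**Figure D4:**
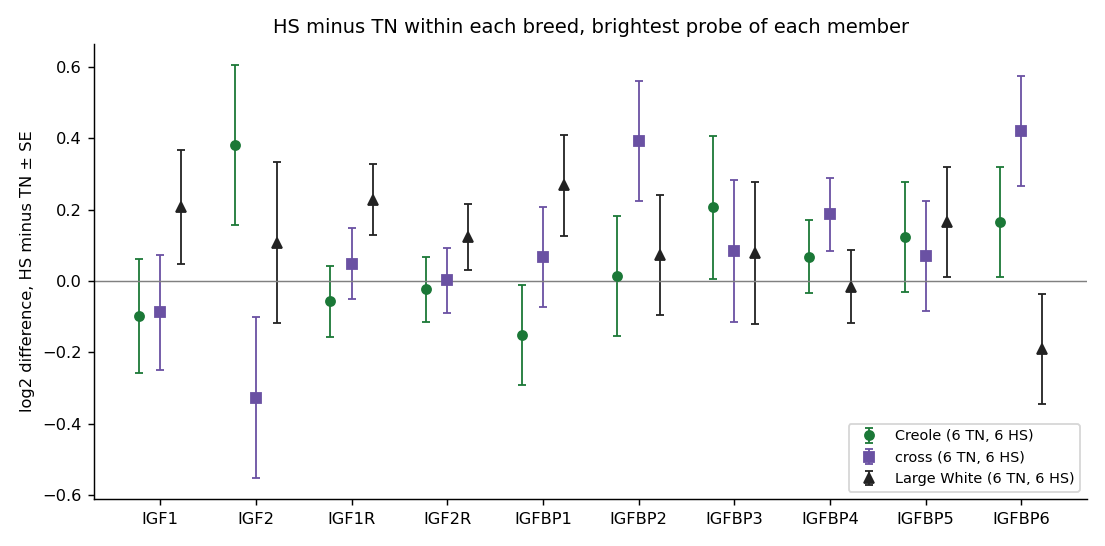
Log2 difference HS minus TN (point) and its SE (bar) within each breed for the brightest probe of the 10 members, from a limma fit over 36 pigs with 6 TN and 6 HS pigs per breed. The values for IGF2 run from -0.33 in the cross to 0.38 in Creole pigs, and none passed the FDR.

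The rest of the pathway was followed through 5 lists, each gene by its brightest probe. The counts are to be read against the 11.5% of all probes called for Large White minus Creole and the 0.911% called for HS minus TN, and for lists this small 1 or 2 calls for the breeds are not a result about the list. Of 6 genes of growth hormone input and the ternary complex, 1 rose with HS, STAT5A, which carries the growth hormone signal to the nucleus, by 0.25 (adjusted p 0.0445, limma). SOCS2, which damps that signal, was higher in Large White than in Creole pigs by 0.24 (adjusted p 0.00939, limma), and the list median was 0.06. GHR, the growth hormone receptor, gave -0.02 and IGFALS, the partner of IGFBP3 in the ternary complex, gave 0.06. Neither passed.

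Of 6 genes of IGFBP proteases and their inhibitors, 4 were in the table and 2 were lower in Large White than in Creole pigs. STC2, an inhibitor of pappalysins, gave -0.47 (adjusted p 0.0119, limma) and HTRA1, a protease of IGFBPs, gave -0.20 (adjusted p 0.0446, limma). Of 20 genes of the insulin receptor, adaptors and kinases, 16 were in the table and 2 were higher in Large White pigs. SHC1, an adaptor to the Ras pathway, gave 0.52 (adjusted p 3.25e-06, limma), and GRB10, an imprinted inhibitor of both receptors, gave 0.64 (adjusted p 0.000546, limma). The median of the 16 genes was 0.06.

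Of 5 IGF2 mRNA-binding and IGFBP-like genes, 4 were in the table and IGF2BP3, which binds the IGF2 transcript, was higher in Large White pigs by 0.32 (adjusted p 0.00481, limma). IGF2BP2 gave -0.31 (adjusted p 0.0878, limma) for this contrast and passed the breed F test (adjusted p 0.0415). Of 10 imprinted growth genes, 9 were in the table. PLAGL1 was higher by 0.33 (adjusted p 0.00148, limma) and PEG10 by 0.43 (adjusted p 0.0446, limma), with a list median of 0.09. PEG10 gave 0.85 among TN pigs (adjusted p 0.00553, limma) and 0.01 among HS pigs (adjusted p 0.981), and its breed F test did not pass (adjusted p 0.0777). MEG3, a maternally expressed RNA, gave 0.46 with an adjusted p of 0.232 in limma. For HS minus TN, 0 genes of these last 4 lists passed the FDR, and the list medians lay between -0.04 and 0.00321.

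Some cell type markers also differed between the breeds, where 11.5% of all probes were called, and their part in the IGF2 and IGFBP6 differences was not tested. Of 5 adipocyte markers, 4 were lower in Large White than in Creole pigs, and the mean log2 level of the list ranged from 8.66 to 9.91 in Creole and from 8.28 to 8.99 in Large White pigs. Of 6 chromaffin cell markers in the table, 3 were higher in Large White pigs, with list means from 13.57 to 14.24 in Creole and from 13.41 to 14.33 in Large White pigs. Of 8 adrenal cortex markers, 2 were lower, with list means from 15.67 to 15.94 and from 15.49 to 15.81. Of 6 markers of fibroblasts and capsule 1 was lower, of 5 of endothelium 1 was higher, of 5 of leukocytes 1 was lower, and of 3 of red blood cells and 4 of hepatocytes 0 passed. For HS minus TN, NR5A1 of the cortex list gave -0.25 (adjusted p 0.0253, limma). It was the only marker called in that contrast, where 0.911% of all probes were called. Within groups, the brightest IGF2 probe correlated with the means of the 8 lists with r from -0.29 to 0.02 over 36 arrays. For IGFBP6 the values ran from -0.11 for the cortex list to 0.51 for the adipocyte list.

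IGF2 and its binding protein IGFBP6 had r = -0.22 and Spearman's rho = -0.21 over 36 pigs after centring on group means, and r = -0.26 without the 2 pigs farthest from the IGF2 median. Within breeds of 12 pigs, r was -0.11 and rho 0.12 in Creole pigs, -0.36 and -0.50 in the cross, and -0.24 and -0.26 in Large White pigs. The pair was chosen after its values were seen. The named genes whose pattern was most like that of IGF2 over the 36 arrays were PTGES2 (r = 0.74), PFDN4 (r = 0.73) and ADAT3 (r = 0.72). Of these, PFDN4 was higher in Large White than in Creole pigs, by 0.98 (adjusted p 0.000436, limma). For IGFBP6 they were C3H2orf40, SLC24A3 and FBLN1, each with r = 0.69, and SLC24A3 was higher in Large White pigs by 0.26 (adjusted p 0.00047, limma). In the RefSeq gene order of the pig, IGF2 lies next to the insulin gene, IGFBP1 next to IGFBP3 and IGFBP2 next to IGFBP5.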

How the data were processed

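RNA of adrenal glands from 36 pigs was labelled with Cy3 and hybridised to 1 array per pig. The authors extracted spots with Feature Extraction 10.10.1.1, and the deposited table holds log2 values of the median pixel intensity after quantile normalization, for 45348 probes. These were used as given. The deposited scanner files hold intensity per spot, not normalized, and served for probe names, sequences, background flags and alternatives. The median difference from values remade from the scanner files was 0.00697 on the log2 scale.

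Tests used limma 3.58.1 in R 4.3.3 (statmod 1.5.0) on all probes of the table with temperature and breed, and a term per breed or temperature for differences within them, with Benjamini-Hochberg adjustment over all probes and an FDR of 0.05. The procedure was tested on simulated data in which the arrays were independent, so that test does not cover littermates, pen mates or slides. The study's random effects (pen, day of slaughter, parents) came with no values for these pigs and did not enter the fit, so littermates and pen mates counted as independent. No other columns of per-sample values were present (0).

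The rule named the 10 members with all probes, genes of the lists past the FDR by their brightest probe, and the 3 named genes with the highest r. GHR, IGFALS, MEG3 and IGF2BP2 were named outside it, after their values were seen. Members and lists were chosen with earlier results of these data known. Probes were named from the annotation (21481), RefSeq transcripts (2900) or older symbols (192), and 35732 had no name. Groups came from the labels, and replicate numbers only name pigs.

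Alternatives were values from the scanner files, normexp with an offset of 50, scaling to the 75th percentile, probes above background on all arrays, the slide as a fixed or random block, each slide or pig left out, a trended and robust variance prior, array weights, no breed term and the mean of a gene's probes. The number of pigs, 6 per group, limits the precision.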

Additional observations from a re-analysis of the deposited data

Results flagged for a closer look

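In 60 sets of 6 pigs (the brightest probe of each member in each group), 3 had a highest or lowest pig that stood far from the others, by a gap above Dixon's critical value for 6 samples. About 1 in 20 such sets does so by chance. In Large White HS pigs, replicate 5 had 11.47 for IGF1R, against 11.04 for the next pig and 10.97 for the lowest. The same pig had 12.38 for IGFBP5, against 13.26 for the next and a median of 13.55. In Creole HS pigs, replicate 3 had 11.66 for IGFBP1, against 11.28 for the next pig and a median of 11.19. None of the 3 genes passed the FDR by its brightest probe in any comparison.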

How the results depend on the processing

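Of the Large White minus Creole calls, 11 member probes passed with the arrays of all slides, 2 without slide 2 (IGFBP6 probes 1 and 2) and 6 without slide 3, of which 4 were among the 11. For the breed F test the count of 10 fell to 6 without slide 1, 2 without slide 2 and 3 without slide 3. The brightest IGF2 probe gave 0.53 without slide 2 and 0.68 without slide 3, no longer past the FDR, and IGF1R probe 2 gave -0.22 without slide 2. Leaving out slide 4 or slide 5, which held as many TN and HS arrays as slide 2 or slide 3, kept the 11 calls. The cause of the losses was not tested. With the slide as a fixed or random block 13 member probes passed, the same 11 with IGFBP3 probe 2 and IGFBP6 probe 3. The other alternatives for this contrast kept the 11 calls, except that leaving out 1 pig gave 10 to 12. The counts for HS minus TN, the interaction and the cross against its parental mean stayed at 0 under every alternative run. No paired analysis was possible because the labels carry no replicate numbers shared between groups. The 6 pigs per group limit what could be detected, and IGF2 probe 9 and IGF1 probe 4 were not well above background on all arrays.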

Other observations

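After centring on group means, the brightest probes of IGF1 and IGFBP1 correlated with r = 0.82 over 36 arrays, while each of them correlated less with the other probes of its own gene (up to 0.52 for IGF1, -0.36 for IGFBP1). The IGF1 probe shares runs of at least 15 bases with 4 probes of other or no name. The IGFBP1 probe shares such runs with 3 probes, and none of them is named for another gene. The IGF1 and IGFBP1 probes therefore share no such run with each other. This pair was chosen after its values were seen, and the points share arrays and slides.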
